A study of Mus musculus with 4 samples.

Results

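The 37 genes described here encode the cell cycle and proliferation machinery: cyclins and their kinase Cdk1, the factors that license and copy DNA, the proteins of the mitotic spindle and its checkpoint, 3 transcription factors of the cycle, and the kinase inhibitor Cdkn1a. They were listed by symbol, and each was read by whichever of its probe sets was brightest on average across the study's 4 arrays. Of the 37, 36 had a value among 18193 genes in all, and Ccnb1 is not analysed here. The 36 divide by role into 3 G1 cyclins, 1 kinase inhibitor, 3 transcription factors, 13 replication genes and 16 mitosis genes.

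Liver RNA came from C57BL/6 mice of 2 groups, wild-type (WT) and Baf60a LKO, in which Baf60a is deleted in the liver only. BAF60a, encoded by Smarcd1, belongs to SWI/SNF, a complex that remodels chromatin. How the deletion was made, the sex of the mice and how many of them were pooled are not given in the sources used here. Smarcd1 itself read 5.62 and 5.88 in WT and 5.34 and 5.30 in Baf60a LKO, lower without overlap by a log2 difference of -0.43 ± 0.14 (SE), which did not pass the test used below (limma, adjusted p = 0.410). Its other probe set differed by -0.14. Which exons were deleted is unknown here, so the value is a limited check of the labels. Both groups received a high-fat diet from 6 weeks of age for 10 weeks, and livers were taken after a night without food. Each group had 2 Affymetrix mouse genome arrays, and each array carried its own pool of RNA. Errors and p-values therefore measure the spread between pools. The 9 measured markers of hepatocytes were bright on every array, with mean log2 signals of 12.07 to 12.15. In whole liver RNA, fewer cells of a type and less RNA per cell cannot be told apart.

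A cell enters the cycle when D-type and E-type cyclins activate kinases that release E2F transcription factors from the retinoblastoma protein. E2F factors switch on genes for DNA replication, and later the MuvB complex with B-MYB and FOXM1 switches on genes for mitosis. Adult hepatocytes are mostly quiescent and return to the cycle after injury or partial hepatectomy. CDKN1A (p21) inhibits the cyclin-dependent kinases and is a target of p53.

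The promoters of replication and mitosis genes carried different letters. E2F sites were searched as TTTCCCGC, TTTCGCGC, TTTGCCGC or TTTGGCGC, the cell cycle homology region (CHR, bound by MuvB) as TTTGAA or TTCGAA, and the CCAAT box as CCAAT. Both strands were searched in RefSeq windows (GRCm38.p6) from 250 bases before to 50 bases after each start. Forms of the E2F motif on opposite strands can overlap, and neither E2F nor CHR letters contain a CCAAT box. Of the 37 genes, 29 had a window, and a gene counted if any of its start sites held the letters. The 6 stretches below, shown because they carry the letters of one class or both, run over the 200 bases before the start, 5′ to 3′ on the gene's strand, with E2F and CHR letters in capitals (for Prc1, before the second of its listed starts).
Mcm5, chr8:75109309-75109508, plus strand: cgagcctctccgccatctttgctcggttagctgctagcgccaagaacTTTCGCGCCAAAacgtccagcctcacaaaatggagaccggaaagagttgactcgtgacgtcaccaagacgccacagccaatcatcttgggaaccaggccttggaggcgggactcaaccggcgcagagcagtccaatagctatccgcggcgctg
Mcm6, chr1:128359706-128359905, minus strand: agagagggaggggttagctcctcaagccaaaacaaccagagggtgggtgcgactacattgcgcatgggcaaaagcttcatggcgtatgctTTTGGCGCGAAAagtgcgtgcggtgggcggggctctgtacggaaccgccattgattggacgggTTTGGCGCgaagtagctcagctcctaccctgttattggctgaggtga
Cdk1, chr10:69352913-69353112, minus strand: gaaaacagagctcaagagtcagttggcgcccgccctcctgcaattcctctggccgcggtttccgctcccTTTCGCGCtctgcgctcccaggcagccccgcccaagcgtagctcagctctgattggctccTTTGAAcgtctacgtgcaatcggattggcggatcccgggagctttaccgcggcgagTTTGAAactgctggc
Cdc20, chr4:118437344-118437543, minus strand: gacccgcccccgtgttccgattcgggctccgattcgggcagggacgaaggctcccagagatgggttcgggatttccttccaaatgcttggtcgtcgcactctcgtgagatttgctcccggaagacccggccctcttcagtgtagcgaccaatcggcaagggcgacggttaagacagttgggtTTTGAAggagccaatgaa
Prc1, chr7:80294276-80294475, plus strand: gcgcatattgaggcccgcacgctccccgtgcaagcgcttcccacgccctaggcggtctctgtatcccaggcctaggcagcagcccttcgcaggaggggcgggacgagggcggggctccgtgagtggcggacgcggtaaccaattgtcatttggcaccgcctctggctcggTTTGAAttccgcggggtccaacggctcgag
Mki67, chr7:135716380-135716579, minus strand: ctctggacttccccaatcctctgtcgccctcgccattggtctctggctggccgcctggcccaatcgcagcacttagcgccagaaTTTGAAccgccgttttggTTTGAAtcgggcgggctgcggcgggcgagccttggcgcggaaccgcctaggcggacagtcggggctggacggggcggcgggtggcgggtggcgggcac

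E2F letters stood in 6 of 11 replication promoters (54.5%) and in 1 of 14 mitosis promoters (7.14%), that of Cdk1, against 2.60% of 27025 genes and 2.26% of all 32851 windows. CHR letters stood in 2 of 11 replication promoters (18.2%) and 11 of 14 mitosis promoters (78.6%), against 21.7% of all genes and 19.2% of all windows. The CCAAT box was common to both, in 8 of 11 and 12 of 14, where 41.1% of all genes and 37.4% of all windows held it. Counted from the start, Mcm5 carried 2 overlapping E2F matches at -153 and -149, and Mcm6 carried 3, at -110, -106 and -47. The Cdk1 promoter carried E2F letters at -131 and CHR letters at -71 and -15. The same split stood in further genes of both processes, with E2F letters in 15 of 39 other replication genes (38.5%) and CHR letters in 37 of 51 other mitosis genes (72.5%). These matches are letters in a window and do not show binding.

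**Figure D1:**
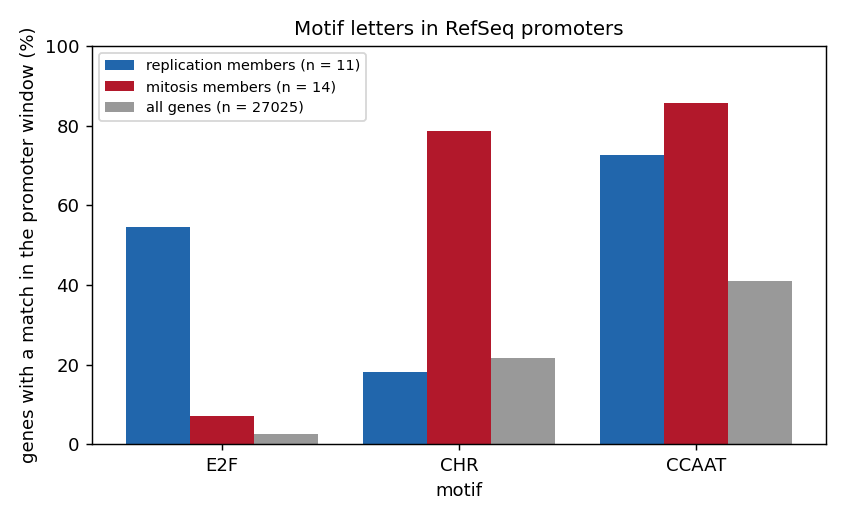
Share of genes (%, vertical axis) whose RefSeq promoter window holds the letters of each motif (horizontal axis), for 11 replication genes, 14 mitosis genes and all 27025 genes. E2F letters were most frequent in replication promoters (54.5%) and CHR letters in mitosis promoters (78.6%).

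Most replication genes, and few mitosis genes, were above the stricter of 2 background gauges in these livers. Signals are on a log2 scale, where a step of 1 is a doubling, and brightness depends on the probe, so levels were set against background and not against each other. The first gauge was the 95th percentile of 27 control probe sets for Bacillus subtilis genes, taken on the array where it was highest, 2.87. The other gauge was the same percentile of 44 probe sets for olfactory receptor genes, 4.41. Over the 4 arrays, 33 of 36 genes had means above the Bacillus gauge (91.7%, against 86.7% of all genes), but only 18 above the olfactory receptor gauge, against 60.5% of all genes. The 18 comprised 10 of 13 replication genes, 3 of 16 mitosis genes (Cdk1, Plk1 and Bub1b), 2 G1 cyclins, 2 transcription factors and Cdkn1a. Bub1, Cdc6 and Tyms lay below both gauges. The gene just below the olfactory receptor gauge was Mcm2 (mean 4.37) and the one just above was Rrm2 (4.62). On the Bacillus gauge these were Cdc6 (2.63) and Ccne2 (3.08).

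**Figure D2:**
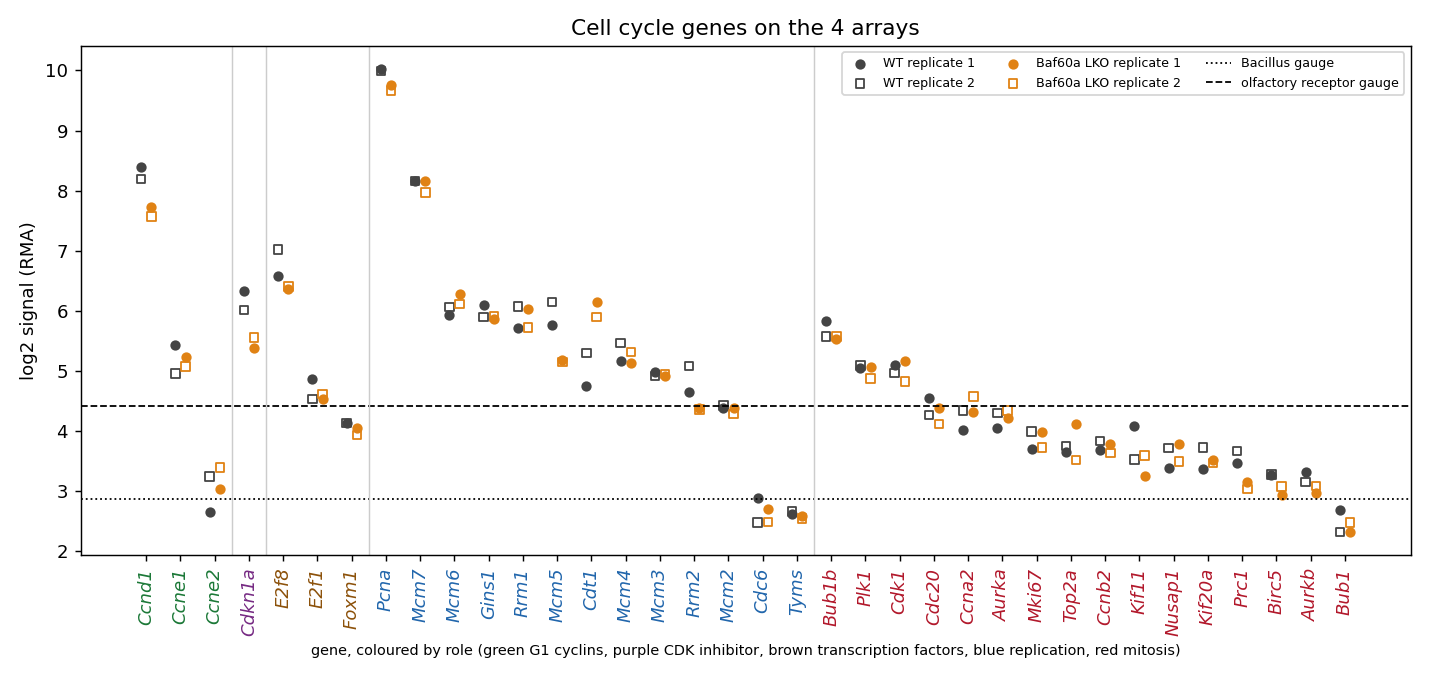
Log2 signal (vertical axis) of the 36 genes on each of the 4 arrays (2 WT, 2 Baf60a LKO), ordered by role and within it by mean. The dotted line is the Bacillus gauge (2.87) and the dashed line the olfactory receptor gauge (4.41). Of the 16 mitosis genes 3 have means above the dashed line, and of the 13 replication genes 10.

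None of the 36 genes passed the test between genotypes, by limma with Benjamini-Hochberg adjustment over all 18193 genes at adjusted p under 0.05. Over all genes 88 passed (0.484%), 43 higher (0.236%) and 45 lower (0.247%) in Baf60a LKO, a split that became 91 higher and 63 lower with array medians subtracted. Ccnd1, Cdkn1a and Mcm5, which were lower, and Cdt1, which was higher on the probe set used, had the lowest unadjusted limma p of the 36 (0.00315 to 0.00489). Their adjusted p lay between 0.191 and 0.233. At an unadjusted p under 0.05 there were 7 of 36 genes (19.4%), 1 higher and 6 lower, where 10.2% of all genes reached it, 5.76% higher and 4.42% lower. Of the 36, 28 had a lower mean in Baf60a LKO (77.8%, against 49.9% of all genes), and the median log2 difference was -0.09 against 0.00 over all genes. That count depended on single arrays. It was 21 of 36 with Baf60a LKO replicate 2 left out and 30 with Baf60a LKO replicate 1 left out. Leaving out WT replicate 1 or 2 gave 26 and 24. Among the 18 above the olfactory receptor gauge, 16 were lower (88.9%), against 36.7% of the 11004 genes above it. Of the 16, Rrm2 exceeded the gauge only through WT (group means 4.865 in WT and 4.366 in Baf60a LKO). The means of both groups were above it for 17 of the 36. The 2 arrays of one group did not overlap those of the other for 14 of 36 genes, 2 higher and 12 lower in Baf60a LKO (33.3% lower and 5.56% higher, against 42.4% of all genes without overlap, 19.6% lower and 22.8% higher).

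For 33 of 36 genes the 95% interval of the log2 difference lay between -1 and 1, which was so for 91.7% of them and 94.6% of all genes. The 3 others were Cdt1, Mcm5 and Cdkn1a. For the 18 genes at or below the olfactory receptor gauge a narrow interval sets no bound on the gene's own change. The WT arrays differed more from each other than the Baf60a LKO arrays did, as the difference between the WT arrays had a standard deviation of 0.32 over genes and that between the Baf60a LKO arrays 0.20. With WT replicate 1 left out, 7 of 36 were below an unadjusted p of 0.05, beside 8.96% of all genes. Leaving out WT replicate 2 gave 6 of 36, beside 27.6% of all genes, which is a larger share than among the 36. The counts were 4 of 36 for each of the Baf60a LKO arrays, beside 3.87% and 3.68%.

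**Figure D3:**
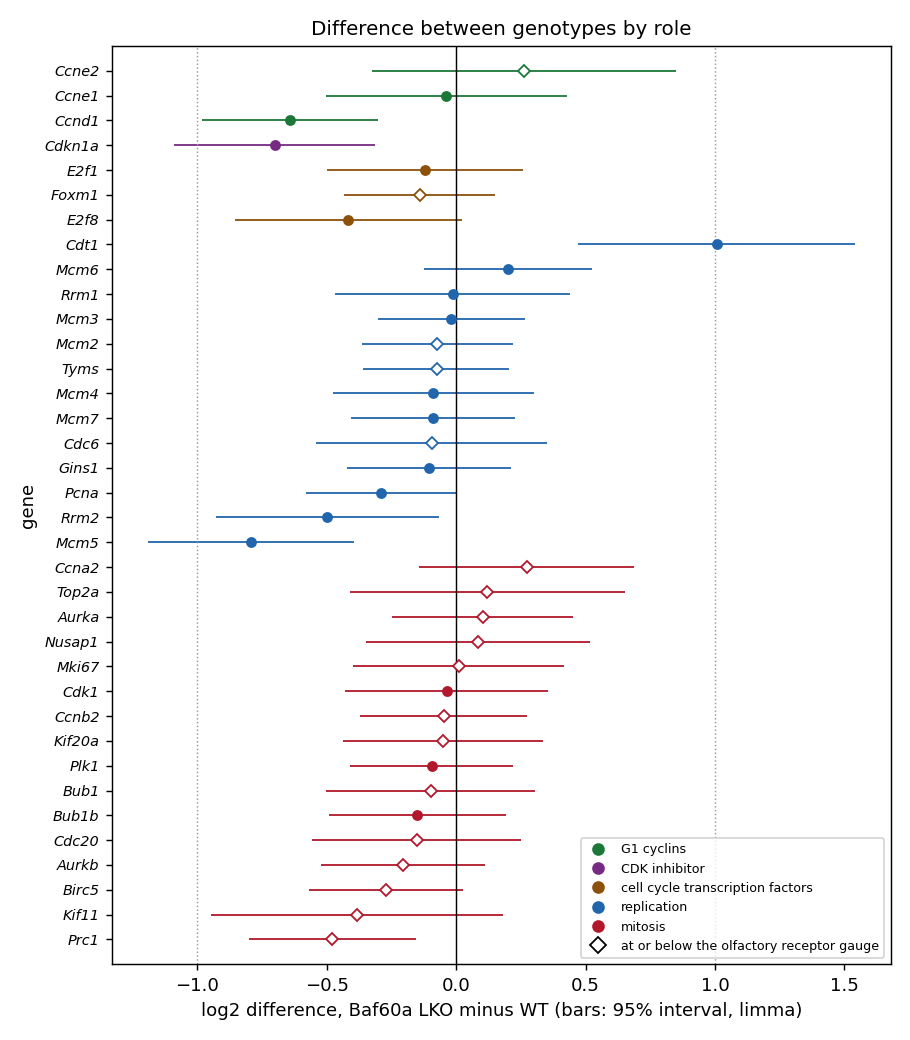
Log2 difference, Baf60a LKO minus WT (horizontal axis), of each gene with its 95% interval from limma (2 arrays per group), coloured by role, with white diamonds for genes at or below the olfactory receptor gauge. Dotted lines mark -1 and 1. The intervals of Cdt1, Mcm5 and Cdkn1a reach past them.

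Among the G1 cyclins, Ccnd1, the D-type cyclin that links growth signals to the cycle, was lower in Baf60a LKO. Its signal was 8.39 and 8.20 in WT and 7.73 and 7.57 in Baf60a LKO. Both Baf60a LKO arrays lay below both WT arrays, by a log2 difference of -0.64 ± 0.14 (SE), or 1.56-fold, which did not pass (limma, adjusted p = 0.215). Its other 2 probe sets, both above the olfactory receptor gauge, differed by -0.57 and -0.55, also with no overlap. Leaving out 1 array gave -0.74 to -0.54. Ccne1, an E-type cyclin that starts replication, stood at 5.42 and 4.95 in WT and 5.23 and 5.07 in Baf60a LKO, with the Baf60a LKO arrays inside the WT range (-0.04 ± 0.19, and 0.20 without WT replicate 1). Ccne2, its paralog, stood at 2.65, 3.24, 3.03 and 3.39, near background on all arrays, with overlapping groups (0.26 ± 0.24, and -0.03 without WT replicate 1).

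Cdkn1a, which restrains the kinases that these cyclins activate, was lower as well. Its signal was 6.32 and 6.01 in WT and 5.38 and 5.56 in Baf60a LKO. The groups did not overlap, and the log2 difference was -0.70 ± 0.16, or 1.63-fold, which did not pass (limma, adjusted p = 0.233). The other probe set read 6.41 and 5.97 in WT and 5.26 and 5.58 in Baf60a LKO, a difference of -0.77. Leaving out 1 array gave -0.86 to -0.55 for the first. Ccnd1 and Cdkn1a, a cyclin and a kinase inhibitor, thus lay on the same side.

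On the probe sets used, the transcription factors had small differences on the same side. E2f8, an atypical E2F that represses E2F targets, read 6.57 and 7.02 in WT and 6.36 and 6.40 in Baf60a LKO. These groups did not overlap (-0.42 ± 0.18, limma adjusted p = 0.503), but the size rested on the WT arrays, since leaving out WT replicate 2 gave -0.19 and leaving out WT replicate 1 gave -0.64. E2f1, the activator of replication genes, read 4.86 and 4.53 in WT and 4.53 and 4.62 in Baf60a LKO, which overlap (-0.12 ± 0.15, and 0.04 without WT replicate 1). On the other E2f1 probe sets, below the olfactory receptor gauge, the gene was lower without overlap (-0.351 and -0.067). Foxm1, the activator of mitosis genes, read 4.13 on both WT arrays and 4.04 and 3.93 in Baf60a LKO, below the olfactory receptor gauge (-0.14 ± 0.12). Its other probe sets, also below that gauge, lay on both sides (-0.19, 0.035 and 0.039).

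Replication starts with licensing, in which CDC6 and CDT1 load the ring of MCM2 to MCM7 onto DNA. Cdt1 had the largest difference of the 36, and its probe sets disagreed. On the probe set used it read 4.74 and 5.29 in WT and 6.15 and 5.89 in Baf60a LKO. Baf60a LKO was higher without overlap, by 1.01 ± 0.21, or 2.01-fold (limma, adjusted p = 0.215). A further Cdt1 probe set above the olfactory receptor gauge read 5.18 and 5.21 in WT and 5.09 and 4.70 in Baf60a LKO, lower by -0.30 and again without overlap. In WT this further probe set was the brighter (mean 5.194, against 5.015 for the one used). The choice by brightness thus rested on the Baf60a LKO arrays (means 4.896 and 6.022). The third lay at background (-0.20). The mean of the 3 differed by 0.17, so no direction can be given for Cdt1. Cdc6 read 2.48 to 2.89, with its mean below the Bacillus gauge, and differed by -0.10 ± 0.18.

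The MCM genes, which encode the core of the replicative helicase, did not move as a block. Mcm5 read 5.77 and 6.15 in WT and 5.18 and 5.14 in Baf60a LKO. The 2 Baf60a LKO arrays nearly coincide below both WT arrays, a difference of -0.80 ± 0.16, or 1.73-fold (limma, adjusted p = 0.191, and 0.0570 to 1 over the other settings). Its other probe sets, both below the olfactory receptor gauge, differed by -0.32 and -0.19. Mcm6 lay on the other side, at 5.92 and 6.06 in WT and 6.28 and 6.11 in Baf60a LKO, higher by 0.20 ± 0.13, and its 2 dim probe sets were higher too. Mcm2, Mcm3, Mcm4 and Mcm7 differed by -0.09 to -0.02 on the probe sets used. For Mcm3 that value hides a spread, since its other probe sets ran from -0.59 to -0.03, and the one above the olfactory receptor gauge read 5.11 and 5.04 in WT and 4.75 and 4.74 in Baf60a LKO (-0.33). Of the 4 Mcm7 probe sets, all above that gauge, 1 was lower (-0.09) and 3 were higher (0.02, 0.07 and 0.47). Gins1, a subunit of the GINS complex that completes the helicase, differed by -0.11 ± 0.13.

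**Figure D4:**
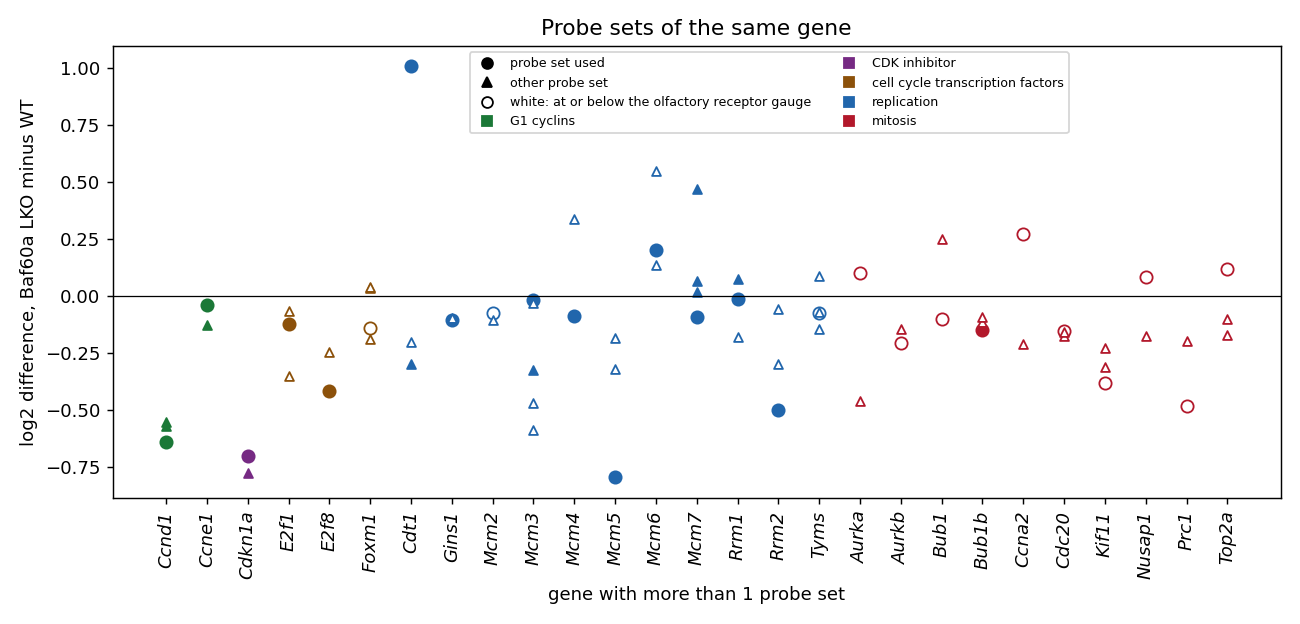
Log2 difference, Baf60a LKO minus WT (vertical axis), of every probe set of the 27 genes read by more than 1. Large circles are the probe sets used, triangles the others, and white symbols lie at or below the olfactory receptor gauge. Ccnd1 and Cdkn1a have all probe sets together below 0, while those of Cdt1 and Mcm7 lie on both sides.

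Pcna, the sliding clamp of DNA polymerase, was read by 1 probe set far above background. It stood at 10.02 and 9.99 in WT and 9.76 and 9.67 in Baf60a LKO. The arrays within a group differed by less than the groups did, and the log2 difference was -0.29 ± 0.12, or 1.22-fold (limma, adjusted p = 0.490). Among the enzymes that supply nucleotides, Rrm2, the small subunit of ribonucleotide reductase, read 4.65 and 5.08 in WT and 4.38 and 4.35 in Baf60a LKO. It was lower without overlap (-0.50 ± 0.17, limma adjusted p = 0.439), a size that was -0.72 with WT replicate 1 left out and -0.28 with WT replicate 2 left out. The other Rrm2 probe sets, below the olfactory receptor gauge, differed by -0.30 and -0.055, and on them the groups were not separated. Its partner Rrm1 differed by -0.01 ± 0.18 with overlapping groups, and Tyms, thymidylate synthase, with its mean below the Bacillus gauge, differed by -0.08 ± 0.11.

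The genes of mitosis differed little. Mki67, the Ki-67 antigen used to stain cycling cells, read 3.70 and 3.99 in WT and 3.99 and 3.72 in Baf60a LKO, the same range in both (0.01 ± 0.16, 95% interval -0.40 to 0.42). Top2a, the topoisomerase that untangles sister chromatids, read 3.64 and 3.75 in WT and 4.11 and 3.52 in Baf60a LKO, with a wider spread in Baf60a LKO than in WT (0.12 ± 0.21, and -0.18 without Baf60a LKO replicate 1). Cdk1, the kinase of mitotic entry, read 5.10 and 4.97 in WT and 5.17 and 4.82 in Baf60a LKO, overlapping (-0.04 ± 0.16). Of these 3 markers of proliferation, Mki67 and Top2a lay below the olfactory receptor gauge.

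Prc1, which bundles microtubules of the central spindle, was the 1 mitosis gene at an unadjusted p under 0.05. It read 3.47 and 3.66 in WT and 3.14 and 3.03 in Baf60a LKO, without overlap but below the olfactory receptor gauge (-0.48 ± 0.13, limma adjusted p = 0.331). On its other probe set it differed by -0.20. Kif11, the kinesin that separates spindle poles, read 4.09 and 3.52 in WT and 3.26 and 3.59 in Baf60a LKO. On this probe set 1 high WT array set the size of the difference (-0.38 ± 0.23, and -0.10 without WT replicate 1). The other Kif11 probe sets, also below the olfactory receptor gauge, were lower without overlap (-0.227 and -0.31). Birc5 (survivin), of the chromosomal passenger complex, read 3.27 on both WT arrays and 2.93 and 3.07 in Baf60a LKO (-0.27 ± 0.12). Aurkb, the kinase of the same complex, differed by -0.21 ± 0.13, also without overlap.

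On the higher side, Ccna2, the cyclin of S phase and early mitosis, read 4.01 and 4.33 in WT and 4.32 and 4.57 in Baf60a LKO, with an overlap (0.27 ± 0.17, while its other probe set was at -0.21). Aurka, a spindle pole kinase, read 4.04 and 4.29 in WT and 4.21 and 4.33 in Baf60a LKO (0.10 ± 0.14, and -0.18 with its probe sets averaged). Nusap1, a spindle-associated protein gene, differed by 0.08 ± 0.17. The other mitosis genes lay between -0.15 and -0.05 with overlapping groups. They were the checkpoint genes Bub1 (-0.10 ± 0.16) and Bub1b (-0.15 ± 0.14), Cdc20, which activates the anaphase-promoting complex (-0.15 ± 0.16), the kinase Plk1 (-0.09 ± 0.13), the cyclin Ccnb2 (-0.05 ± 0.13) and the kinesin Kif20a (-0.05 ± 0.16). The signs of Ccnb2 and Kif20a turned to 0.02 after a further normalization by quantiles or loess.

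Set side by side, replication and mitosis genes had nearly the same median difference. The median was -0.09 over 13 replication genes, with 11 of 13 lower, and -0.07 over 16 mitosis genes, with 11 of 16 lower, beside 0.00 over all genes. The difference of these medians was -0.02. A spread between replicates was taken only for another quantity, the mean signal of replication genes less that of mitosis genes (0.05). It is not a spread of the medians. The single differences ran from -0.80 to 1.01 (Cdt1, whose probe sets disagreed) among replication genes and from -0.48 to 0.27 among mitosis genes. By limma, 4 of 13 and 1 of 16 reached an unadjusted p under 0.05 (10.2% of all genes). Mean log2 signal per array was 5.47 and 5.59 in WT and 5.50 and 5.41 in Baf60a LKO for replication, and 3.95 and 3.96 against 3.90 and 3.83 for mitosis. The replication means overlapped between genotypes, and the mitosis means did not. Of all single genes, 42.4% were without overlap, and 13 of the 16 mitosis genes lay at or below the olfactory receptor gauge. The distance between the replication and mitosis means was 1.52 and 1.62 in WT and 1.60 and 1.57 in Baf60a LKO. As brightness depends on the probe, only the change of this distance between arrays can be read, not its size. By promoter, the 7 genes with E2F letters ran from -0.80 (Mcm5) to 1.01 (Cdt1) with a median of -0.04, and the 14 with CHR letters from -0.48 to 0.12 with a median of -0.09.

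**Figure D5:**
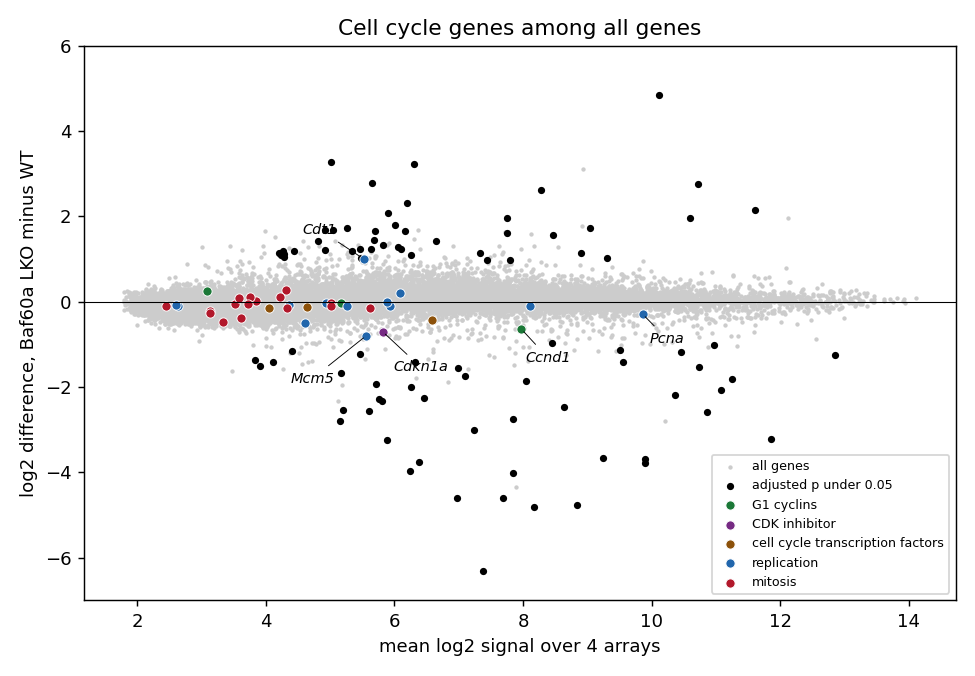
Log2 difference, Baf60a LKO minus WT (vertical axis), against mean log2 signal over 4 arrays (horizontal axis) for 18193 genes. Black points are the 88 genes that passed, and coloured points are the 36 cell cycle genes by role, none of which passed.

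The probe sets agreed in direction for 16 of the 27 genes read by more than 1. Restricted to probe sets above the olfactory receptor gauge, 7 genes had several, and 4 of them were read in 1 direction: Ccnd1, Ccne1, Cdkn1a and Mcm3. Cdt1, Mcm7 and Rrm1 were read both ways. In all, 28 of 83 probe sets lay above that gauge, and none of the 83 passed (limma, adjusted over all probe sets).

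Further genes of the pathway gave the same count of 0 passed by limma over all genes (0.484% of all genes). Among 46 other replication genes, 26 were higher and 20 lower, with a median of 0.05, and 9 reached an unadjusted p under 0.05 (19.6%, against 10.2% of all genes), 5 higher and 4 lower. Tk1, thymidine kinase, read 8.36 and 8.30 in WT and 7.66 and 7.75 in Baf60a LKO (-0.63 ± 0.12, limma adjusted p = 0.161). Fen1, the nuclease that trims Okazaki fragments, differed by -0.84 ± 0.22 on the probe set used (-0.53 with WT replicate 1 left out) and by 0.30 on its other one. On the higher side were Pold3, a subunit of DNA polymerase delta (0.39 ± 0.12), and Dtymk, thymidylate kinase (0.38 ± 0.12). Mcm10, chosen after its values were seen, passed with a trended and robust eBayes (-0.60, limma adjusted p = 0.0270).

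Among 60 other mitosis genes, 39 were lower and 21 higher, with a median of -0.01, and 6 reached an unadjusted p under 0.05 (10.0%, against 10.2% of all genes), 3 on each side. Spc25, a subunit of the NDC80 kinetochore complex, stood out on the higher side. It read 6.71 and 7.25 in WT and 8.32 and 8.24 in Baf60a LKO. Baf60a LKO was higher without overlap, by 1.30 ± 0.20, or 2.46-fold, with adjusted p = 0.104 by limma. It passed after further normalization by quantiles, loess or medians (adjusted p = 0.0304 to 0.0398) or with a trended and robust eBayes (0.0258), but its other probe set differed by 0.01. Ncapd2, a condensin subunit, differed by 0.55 ± 0.27, but by 0.15 with WT replicate 1 left out and 0.05 on its other probe set. Cdca8 (borealin) differed by -0.42 ± 0.13, and by 0.11 without _x_at and _s_at probe sets. Cenpf, a kinetochore protein gene, differed by -0.42 ± 0.13. Of the 60 genes, 36 lay at or below the olfactory receptor gauge, Cenpf and Ncapd2 among them.

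Among 38 further regulators of the cycle, 21 were higher and 17 lower, with a median of 0.04, and 3 reached an unadjusted p under 0.05 (7.89%, against 10.2% of all genes), on the higher side, where 5.76% of all genes lay. Atr, the kinase that senses stalled replication, differed by 0.53 ± 0.19, and by 0.30 with WT replicate 1 left out. E2f5, a repressor E2F, differed by 0.50 ± 0.20, by 0.32 with WT replicate 1 left out, by 0.30 with Baf60a LKO replicate 2 left out and by -0.09 without _x_at and _s_at probe sets. Chek1, a checkpoint kinase, differed by -0.32 ± 0.17, by -0.16 with WT replicate 2 left out, by -0.18 with Baf60a LKO replicate 2 left out and by -0.05 without _x_at and _s_at probe sets. Mybl2, the gene of B-MYB, differed by -0.32 ± 0.13. Of the 38 regulators, 10 lay at or below the olfactory receptor gauge, Chek1 and Mybl2 among them. Among 21 p53 targets, Cdkn1a included, 13 were lower and 8 higher, with a median of -0.04. Btg2, an antiproliferative p53 target, read 7.31 and 7.60 in WT and 6.74 and 6.85 in Baf60a LKO. Its 2 probe sets were lower by -0.66 and -0.66, without overlap on the one used (limma, adjusted p = 0.233). Cdkn1a and Btg2 were the 2 of 21 at an unadjusted p under 0.05 (9.52%, against 10.2% of all genes). Both were lower, as were 4.42% of all genes at that level. Zmat3 and Ei24, further p53 targets, differed by 0.25 ± 0.12 and 0.20 ± 0.12.

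Markers of other liver cells are given because dividing cells in whole liver need not be hepatocytes. None of the marker genes passed over all genes. Endothelial markers were lower for 9 of 10 (median -0.11), stellate cell markers for 8 of 10 (-0.03) and B and plasma cell markers for 6 of 8 (-0.14). Cholangiocyte markers were higher for 7 of 8 (0.42). At an unadjusted p under 0.05, 4 of 8 were higher and 1, Krt23, was lower (-0.47 ± 0.12), where 10.2% of all genes reached it. Pkhd1 (1.34 ± 0.30) and Epcam (1.17 ± 0.21) had the largest differences (these 3 were named after their values were seen). In the other lists, erythroid markers were lower for 6 of 8 (-0.10) and hepatocyte markers for 5 of 9 (-0.04). Higher as well were neutrophil markers for 5 of 7 (0.46), while T and NK cell and Kupffer cell markers had medians of 0.05 and 0.06. On the linear scale the summed signal of the endothelial markers was 3785 and 4126 in WT and 3762 and 3558 in Baf60a LKO, that of the cholangiocyte markers 180.2 and 207.2 against 240.8 and 316.1, and that of the B and plasma cell markers 170.3 and 174.6 against 153.2 and 152.1. The summed signal of the neutrophil markers was 155.1 and 205.5 in WT and 227.6 and 284.5 in Baf60a LKO. Of the cholangiocyte markers Cftr had a mean below the Bacillus gauge (1.90 to 2.29 over the arrays), and of the T and NK cell markers Cd2 (2.56 to 3.09). Of the erythroid markers Hemgn (2.275 to 2.668) and Rhag (2.127 to 2.325) did as well. Above the olfactory receptor gauge were the means of 4 of 8 cholangiocyte, 3 of 7 neutrophil and 4 of 8 B and plasma cell markers. For T and NK cell markers it was 4 of 10 and for erythroid markers 4 of 8, against 60.5% of all genes. All measured hepatocyte, Kupffer, endothelial and stellate cell markers lay above it. At an unadjusted p under 0.05, 3 of 8 erythroid markers were lower, Hemgn among them, where 10.2% of all genes reached it. The part of these cells in the differences above was not tested.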

How the data were processed

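Liver RNA of 2 WT and 2 Baf60a LKO pools was hybridised to 4 Affymetrix mouse genome arrays. From their range the deposited values are log2 signals, which the authors made with robust multi-array average (RMA) and the packages affy and limma, per the submitters' processing notes. RMA compresses differences at low levels. Arrays have no read depth, and their number limits the precision.

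The tests used the 45101 probe sets less 64 controls. The platform annotation gave 1 symbol to 34945 probe sets, several to 932 and none to 9160, and 34741 were matched to RefSeq (GRCm38.p6) by Entrez number. The probe set with the highest mean stood for each gene, with no filter on level. Groups came from the labels' titles.

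The test between genotypes was limma's (version 3.58.1, R 4.3.3, lmFit and eBayes, 2-sided, Benjamini-Hochberg over 18193 genes, adjusted p under 0.05). The fit had 2 residual and 3.54 prior degrees of freedom, and errors are its standard errors. Tested on simulated data for this comparison (18193 genes, 200 changed), it called 68 of 74 genes with a simulated log2 change of 2, 18 of 63 with 1 and 0 of 63 with 0.5. Of its 89 calls, 3 were of unchanged genes. Figures used matplotlib 3.10.9.

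The members, lists and rule for named genes were chosen with earlier results of these data known. All 36 measured genes are named. Of the other lists, the 2 largest differences on each side without overlap, and any gene past the threshold, are named. Alternatives were 3 normalizations, averaged probe sets, no _x_at or _s_at probe sets, the brighter 50% of genes, eBayes with a trend and robust, the replicate number as a block, adjusted p under 0.10, other background gauges and leaving out each array.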

Additional observations from a re-analysis of the deposited data

How the results depend on the processing

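None of the 36 genes passed under any alternative, and the lowest adjusted p was 0.0570 by limma, for Mcm5 after loess. Over all genes, 142 passed after cyclic loess, 154 with array medians subtracted, 216 with a trended and robust eBayes, 19 with a replicate block and 0 to 17 with 1 array left out (0 with WT replicate 1 left out, where limma gave 1630 genes at unadjusted p below 0.05). The labels do not pair the replicate numbers, and the deviations of same-numbered arrays correlated at 0.14 over genes. The block changed no call among the 36. Of the other mitosis genes, 1 passed after quantiles, loess, medians or a trended eBayes, and 1 other replication gene with the trended eBayes. The brighter 50% of genes kept 11 of the 36, with Bub1b as the 1 mitosis gene, so that the mitosis value there (-0.15) is that of Bub1b. The mitosis median was -0.139 to -0.008 with 1 array left out. Over the brighter 50% the replication median minus Bub1b alone was 0.059. The difference of the medians was -0.03 to 0.03 with 1 array left out. The olfactory receptor gauge left 18 genes above background. Of 406 pairs of gene and setting, 38 turned the sign, and 19 of 36 genes kept it throughout. After quantiles and loess these were Ccnb2 (0.023 and 0.024) and Kif20a (0.021 and 0.023), with medians subtracted Mcm3 (0.013) and Rrm1 (0.019), and without _x_at and _s_at probe sets Mcm7 (0.02). With averaged probe sets they were Mcm4 (0.12), Mcm7 (0.12), Top2a (-0.05), Bub1 (0.075), Aurka (-0.18) and Nusap1 (-0.045). With 1 array left out, Cdc6 ran from -0.30 to 0.11, Mcm3 from -0.052 to 0.014, Mcm4 from -0.24 to 0.065, Mcm7 from -0.19 to 0.009, Rrm1 from -0.19 to 0.16, Mki67 from -0.14 to 0.16, Top2a from -0.18 to 0.42, Ccnb2 from -0.13 to 0.03, Cdk1 from -0.21 to 0.14, Bub1 from -0.28 to 0.082, Aurka from -0.023 to 0.23, Plk1 from -0.19 to 0, Kif20a from -0.23 to 0.125, Nusap1 from -0.085 to 0.25, Ccne1 from -0.27 to 0.20, Ccne2 from -0.032 to 0.56 and E2f1 from -0.29 to 0.043. The causes were not tested. Of the 16 mitosis genes, 13 lay at or below the olfactory receptor gauge, and RMA compresses differences of dim probe sets. How far that compression sets the mitosis values was not tested.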
